A study of Mus musculus with 9 samples.

Results

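The comparison set the livers of mouse group A-C against those of group C, in 3 RNA-seq libraries each. It took every gene whose deposited TPM, a read measure scaled to exon length and library size, reached 1 in at least 3 of the 9 libraries of the series, which is 11086 of 31964 gene IDs. The series describes the NIAAA model, in which mice take an alcohol-containing liquid diet, with or without magnesium isoglycyrrhizinate (MgIG), a licorice-derived compound given for liver injury. The labels name the groups by letter alone (A-C, C and M), so which group received alcohol or MgIG is not stated, and neither are age, sex, time or pooling. All A-C libraries, replicates 6, 9 and 12, carry the strain label C57BL6J, as do C replicates 2 and 3, while C replicate 4 reads C57BL7J. The tissue label is liver and the cell type label is hepatocyte, with total RNA extracted in Trizol. Values below are TPM scaled between libraries, always in the order replicates 6, 9 and 12 for A-C and replicates 2, 3 and 4 for C. Nothing says that replicates came from separate animals, so p-values measure the spread between these libraries, which may be technical.

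The liver clears ethanol by oxidation through alcohol and aldehyde dehydrogenases and a microsomal cytochrome P450, which loads hepatocytes with reducing power and reactive products. Hepatocytes also make fat and cholesterol under SREBP and ChREBP, burn fatty acids under PPAR alpha, detoxify foreign compounds under CAR, PXR and NRF2, and secrete most plasma proteins, among them the acute phase proteins induced by interleukin-6. Much of this programme follows the circadian clock, in which the activators BMAL1 and CLOCK drive their own repressors, the period and cryptochrome proteins and REV-ERB.

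In the A-C libraries the recovered reads numbered 52392521 to 65165613, against 45597163 to 46631110 in C. The divisors that scaled the TPM were 1.001 to 1.09 in A-C and 0.867 to 0.902 in C, so the scaling itself separates the groups. On scaled TPM the median log2 fold change of all tested genes was 0.03, and on the TPM as deposited it was 0.22. Hepatocyte markers were abundant in each library: the 14 markers summed to 154045, 126839 and 93334 TPM in A-C, against 156244, 166550.0 and 158048 TPM in C. Markers of endothelial, Kupffer and stellate cells were present in each library too, so the material was not hepatocytes alone. The A-C libraries also differed among themselves in the summed level of the acute phase genes, which was lowest in replicate 6 and highest in replicate 12.

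By limma with Benjamini-Hochberg adjustment over the 11086 genes, 1871 passed an adjusted p of 0.05, or 16.9% of those tested. Of these, 1076 rose in A-C (9.71%) and 795 fell (7.17%), and 504 changed by at least 1 on the log2 scale. The TPM as deposited gave 2385 genes higher (21.5%) and 404 lower (3.64%), each fold change then standing higher by about the shift in the median. The groups did not overlap in 41.2% of tested genes, with A-C above C in 22.8% and below in 18.4%, which is the background for any statement that groups did not overlap. The count varied with the library left out, and a fit with fewer libraries can lose a call without a change in fold change. Leaving out A-C replicate 9 gave 257 higher and 194 lower genes, and leaving out C replicate 3 gave 205 and 126. The other leave-one-out counts nearest to these were 534 and 388 (C replicate 2), 656 and 424 (C replicate 4), and 728 and 497 (A-C replicate 12). The genes that passed in each of the 9 fits with 1 library left out numbered 295, of which 184 were higher and 111 lower. Each account below says which of its named calls are among them, apart from the rises outside the gene lists given at the end.

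**Figure D1:**
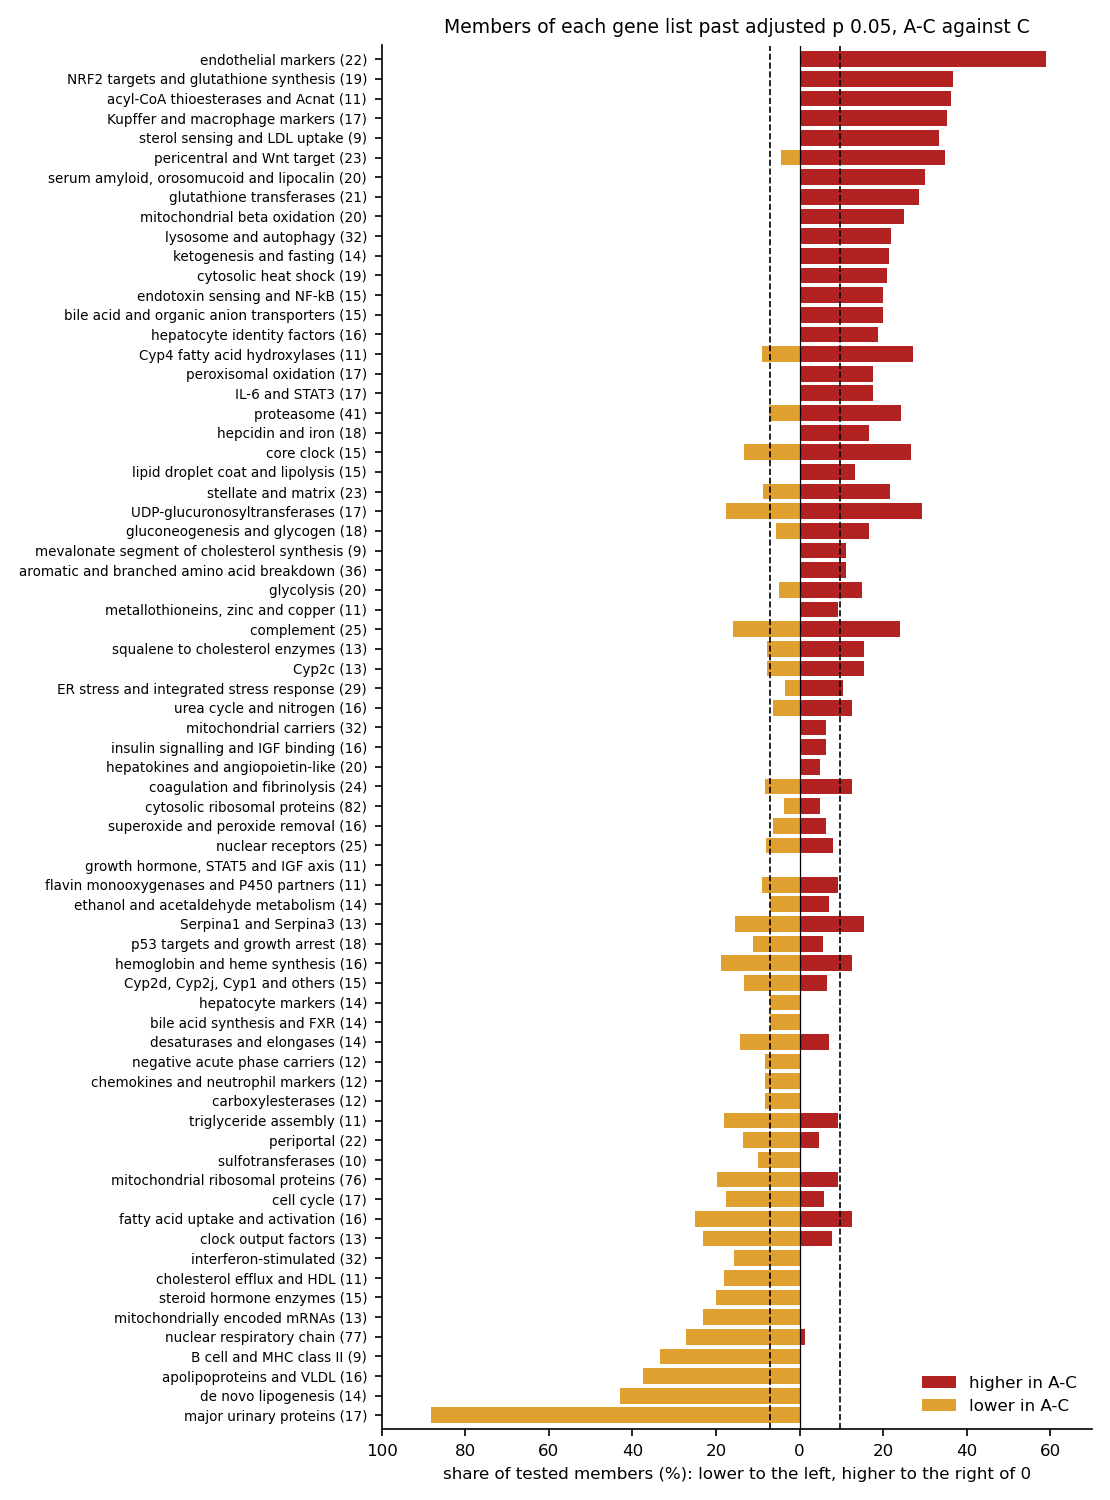
Share of tested members (x axis, %) that passed adjusted p 0.05, drawn to the right for members higher in A-C and to the left for members lower, in each gene list with at least 9 tested members (the number in brackets). The dashed lines mark the shares over all tested genes, 9.71% higher and 7.17% lower, and the bars that pass furthest beyond them are the endothelial markers on the higher side and the major urinary proteins on the lower side.

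The largest falls outside the families described below were in Selenbp2, Tff3 and Phf11c. Tff3 encodes trefoil factor 3, a small secreted mucosal peptide. It stood at 12.3, 4.47 and 8.67 TPM in A-C, against 125, 333 and 472 TPM in C (log2 ratio -4.93 ± 0.48 (SE), adjusted p = 0.00172). Each A-C library lay far below each C library, and C replicate 2 was the lowest control. Selenbp2, a selenium-binding protein gene of male-biased liver expression, had 41.7, 14.6 and 11.8 TPM in A-C, against 339.9, 878 and 1439 TPM in C (log2 fold change -5.21 ± 1.11, SE). Phf11c, a PHD finger gene, had 3.78, 3.78 and 3.38 TPM in A-C, against 34.7, 77.4 and 55.3 TPM in C (log2 fold change -3.54 ± 0.53, SE). Both groups stood apart in these genes too. The highest adjusted p with 1 library left out was 0.0136 for Tff3 and 0.0336 for Phf11c. The call of Selenbp2 ended without any 1 of A-C replicates 9 and 12 and C replicates 3 and 4. The largest rises lay in families described below, among them Cyp2b, Cyp2a, Cyp4a, acyltransferases, UDP-glucuronosyltransferases and glutathione transferases.

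The clock activators Arntl and Clock rose, while the repressors Ciart and Nr1d1 and the output factor Dbp fell. Of 15 tested core clock genes (17 listed), 4 were higher and 2 lower, with a median log2 fold change of -0.27. Arntl, which encodes the activator BMAL1, had 4.25, 4.66 and 5.92 TPM in A-C, against 1.31, 0.221 and 0.26 TPM in C (log2 ratio 1.95 ± 0.26 (SE), adjusted p = 0.00415). Its A-C libraries all lay above the C libraries, and C replicate 2 was the highest of the controls. Clock, the partner of BMAL1, had 6.08, 6.66 and 7.56 TPM in A-C, against 4.23, 2.41 and 2.67 TPM in C (log2 fold change 0.94 ± 0.19, SE). Cry1, a repressor that peaks late in the cycle, had 25.7, 22.7 and 23.8 TPM in A-C, against 17.6, 7.84 and 8.91 TPM in C, and it too rose (log2 fold change 1.09 ± 0.26, SE). Csnk1d, a kinase that marks period proteins for breakdown, rose by 0.40 (adjusted p = 0.0497). Arntl passed with any 1 of the 9 libraries left out, and each other call named here ended without at least 1 of A-C replicates 6, 9 and 12, M replicates 24, 26 and 27 and C replicates 2, 3 and 4.

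The repressor Ciart had 8.59, 8.27 and 4.56 TPM in A-C, against 45.3, 46.7 and 51.6 TPM in C (log2 ratio -2.63 ± 0.55 (SE), adjusted p = 0.0178), with each A-C value below each C value. Nr1d1, which encodes REV-ERB alpha, the repressor of Arntl, had 8.92, 8.43 and 8.5 TPM in A-C, against 11.6, 22.1 and 21.8 TPM in C (log2 fold change -0.97 ± 0.24, SE). The period genes lay below C in all 3 A-C libraries but did not pass: Per1 had a log2 fold change of -0.69 (adjusted p = 0.058), Per2 -0.72 (0.0622) and Per3 -1.20 (0.074). Among 13 clock output genes 3 were lower and 1 higher (3 higher and 2 lower on the TPM as deposited). Dbp, a transcription factor driven directly by BMAL1 and CLOCK, had 12.9, 3.94 and 1.21 TPM in A-C, against 26.8, 71.6 and 54.4 TPM in C (log2 ratio -3.17 ± 0.65 (SE), adjusted p = 0.0164), with A-C replicate 12 lowest. Noct, which encodes nocturnin, had 5.41, 4.74 and 1.44 TPM in A-C, against 21.5, 14.6 and 17.2 TPM in C. Klf10, a zinc finger repressor, had 10.2, 10.2 and 13.8 TPM in A-C, against 17.4, 21 and 19.6 TPM in C; both fell. Avpr1a, the vasopressin receptor, rose with 34, 23.4 and 34.3 TPM in A-C, against 16.2, 12.3 and 11.9 TPM in C. The related factors Tef (-0.90, adjusted p = 0.0688) and Hlf (-0.80, 0.123) did not pass. Of the calls named here, Arntl held in each fit without 1 library, whereas each of the rest was lost without at least 1 of A-C replicates 6, 9 and 12, M replicate 27 and C replicates 2, 3 and 4. The number of core clock genes called higher in fits without 1 A-C or C library was 1 to 3 (fewest without A-C replicate 9 or C replicate 3), and of those called lower 0 to 4 (fewest without A-C replicate 9 or C replicate 3). The labels give no time of day for any liver, so a difference in the hour of sampling cannot be told apart from the groups.

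Promoter windows of 300 bases from RefSeq (250 before and 50 after a gene's start, build GRCm38.p6) were found for 11 of the 15 core clock genes. The 2 genes shown carry the largest rise and fall of the core clock, with the clock motifs in capitals. Arntl lies at chr7:113207261-113207560 (+ strand) and holds the ROR element TAGGTCA, the letters bound by REV-ERB and ROR receptors, in 1 of its 2 windows. Ciart lies at chr3:95882179-95882478 (minus strand) and holds the E-box CACGTG, the letters bound by BMAL1 and CLOCK, in 3 copies.
Arntl: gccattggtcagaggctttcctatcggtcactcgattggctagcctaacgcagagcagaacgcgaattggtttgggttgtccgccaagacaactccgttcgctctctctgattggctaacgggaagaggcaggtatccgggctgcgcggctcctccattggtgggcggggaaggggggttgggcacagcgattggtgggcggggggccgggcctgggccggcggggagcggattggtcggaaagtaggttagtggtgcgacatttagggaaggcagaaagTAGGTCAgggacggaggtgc
Ciart: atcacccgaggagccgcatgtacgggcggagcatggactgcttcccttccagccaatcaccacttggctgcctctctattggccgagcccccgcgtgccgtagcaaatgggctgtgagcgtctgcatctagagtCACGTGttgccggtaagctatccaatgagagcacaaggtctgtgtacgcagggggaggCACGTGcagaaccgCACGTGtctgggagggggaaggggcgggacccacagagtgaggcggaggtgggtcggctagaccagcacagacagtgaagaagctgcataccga
Both strands were searched. The E-box, which reads the same on both strands, was in 3 of 18 core clock windows (of Ciart, Cry1 and Per1) and in 7.15% of all 32851 windows. TAGGTCA was in 1 of the 18 and in 2.61% of all windows. A match describes the letters and does not show a bound site.

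**Figure D2:**
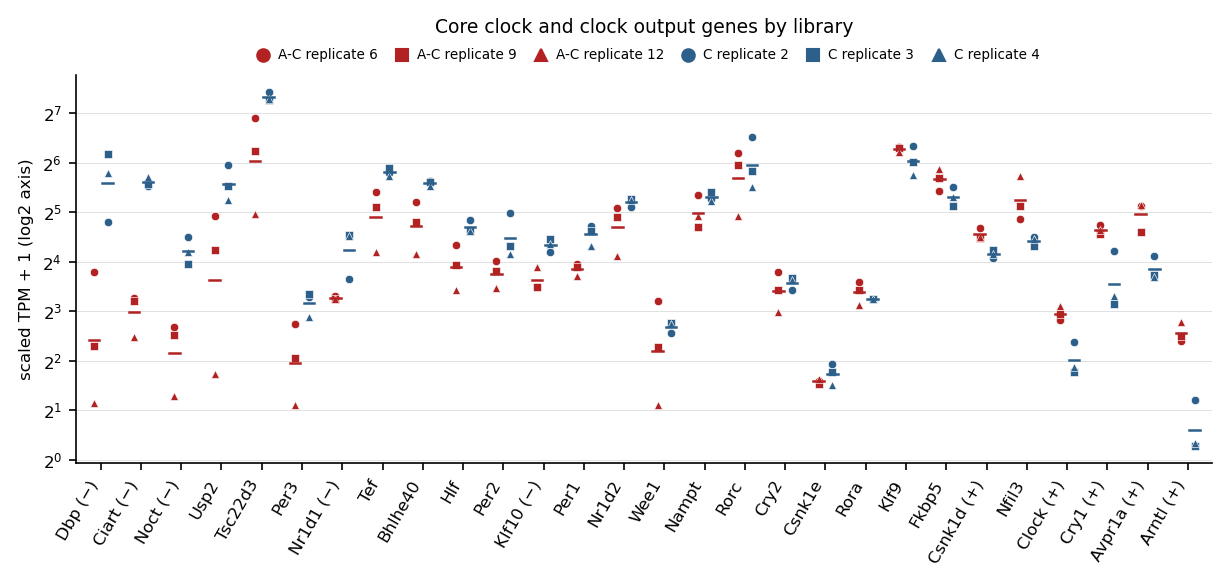
Scaled TPM + 1 (y axis, log2) of each core clock and clock output gene in the 3 A-C libraries (red, left) and the 3 C libraries (blue, right), ordered by fold change, with lines at the means of the log values. Genes marked (+) rose and genes marked (−) fell at adjusted p 0.05; Dbp and Ciart stand at the low end and Arntl at the high end.

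Fat synthesis genes fell in A-C. Of 14 tested genes of de novo lipogenesis, 6 fell, with a median log2 fold change of -1.24 against 0.03 over all genes. Thrsp, which encodes the lipogenic regulator Spot 14, had 369, 225 and 136 TPM in A-C, against 2098, 1982 and 1823 TPM in C (log2 ratio -3.12 ± 0.58 (SE), adjusted p = 0.0124). Acly, the ATP citrate lyase that supplies cytosolic acetyl-CoA, had 46.5, 28.6 and 17.7 TPM in A-C, against 118, 101 and 103 TPM in C (log2 fold change -1.86 ± 0.37, SE). Each A-C library was below each C library in both genes, and replicate 12 was the lowest. Mid1ip1, an activator of acetyl-CoA carboxylase, had 17.4, 10.9 and 6.92 TPM in A-C, against 29.5, 43 and 30.7 TPM in C, and Mlxipl, which encodes ChREBP, the glucose-sensing activator of lipogenesis, had 53.7, 58.3 and 24 TPM in A-C, against 145, 106 and 97.3 TPM in C; both fell, as did Fasn and Srebf1. Scd1, the stearoyl-CoA desaturase, had 3343, 2990.2 and 1864 TPM in A-C, against 3023, 3561 and 2578 TPM in C, with overlap between the groups (adjusted p = 0.698). Without 1 A-C or C library 1 to 7 (fewest without C replicate 3) genes of the list were lower. The call of Fasn held whichever library was left out, and the others named here each ended without at least 1 of A-C replicate 9 and C replicates 2 and 3.

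Of the enzymes that lengthen and desaturate fatty acids, 2 of 14 fell and 1 rose (2 higher and 2 lower on the TPM as deposited). Fads3, of the desaturase family, had 2.94, 2.07 and 1.72 TPM in A-C, against 13.9, 15.6 and 9.23 TPM in C (log2 ratio -2.09 ± 0.25 (SE), adjusted p = 0.00334). Elovl2, the elongase of long polyunsaturated fatty acids, had 180.1, 154 and 79.1 TPM in A-C, against 282, 361 and 313 TPM in C (log2 fold change -1.28 ± 0.29, SE), while Hacd3, a dehydratase of the elongation cycle, rose by 0.73. Of 16 genes of fatty acid uptake and activation 4 fell, of which 3 encode binding proteins, and 2 rose (3 higher and 3 lower on the TPM as deposited). Fabp5 had 5.31, 6.72 and 5.62 TPM in A-C, against 28.8, 69.8 and 32.8 TPM in C (log2 fold change -2.60 ± 0.33, SE). Fabp2 had 92.6, 127 and 71.4 TPM in A-C, against 243, 294 and 261 TPM in C (log2 fold change -1.48 ± 0.26, SE), and Fabp1, the main carrier in hepatocytes, fell by 2.41. Lpl, the lipoprotein lipase, had 2.46, 2.41 and 2.15 TPM in A-C, against 3.27, 4.96 and 4.61 TPM in C, and also fell. In contrast Cd36 rose by 2.84 and Acsm3, a medium-chain acyl-CoA synthetase, by 0.98. Of 15 lipid droplet genes 2 rose: Plin2, a droplet coat protein, by 2.31, and Fitm2, which buds droplets from the endoplasmic reticulum, by 0.81, while Cidec, a droplet fusion protein, had 5.31, 13.7 and 25.8 TPM in A-C, against 5.08, 5.31 and 5.51 TPM in C, and did not pass (adjusted p = 0.0977). No single library, left out, ended the calls of Fads3, Fabp5, Fabp1, Cd36 and Acsm3, while each other named call was lost on leaving out at least 1 of A-C replicates 9 and 12, M replicates 26 and 27 and C replicates 2, 3 and 4.

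The cholesterol pathway did not move as a block. Of 9 mevalonate genes 1 rose, and of 13 genes from squalene to cholesterol 2 rose and 1 fell, with medians of 0.08 and -0.08. The mevalonate share was 11.1% higher, and the squalene shares were 15.4% higher and 7.69% lower. Over all genes 9.71% were higher and 7.17% lower. Idi1, the isopentenyl diphosphate isomerase of the mevalonate segment, had 29.4, 26.2 and 15.9 TPM in A-C, against 4.08, 8.22 and 9.69 TPM in C (log2 ratio 1.60 ± 0.34 (SE), adjusted p = 0.0185). Nsdhl, which removes methyl groups from the sterol ring, had 32.5, 23.9 and 14.8 TPM in A-C, against 59.7, 73.8 and 57 TPM in C, and it fell by 1.44 on the log2 scale. Lbr, a sterol reductase that also anchors lamin B, rose by 0.66. The calls named here were each lost on leaving out at least 1 of A-C replicates 9 and 12 and C replicates 2, 3 and 4.

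Among 9 tested genes of sterol sensing and LDL uptake 3 rose. Insig2, which holds SREBP in the endoplasmic reticulum, had 101, 126 and 153 TPM in A-C, against 60.2, 39.3 and 37.3 TPM in C (log2 ratio 1.47 ± 0.23 (SE), adjusted p = 0.00728). Mylip, a ubiquitin ligase induced by sterols, rose by 0.89 and Srebf2 by 0.64. Abcg5, a subunit of the transporter that exports sterols to bile, had 35.6, 20.5 and 12.5 TPM in A-C, against 80.4, 72.7 and 55.6 TPM in C, and fell by 1.67. Its partner Abcg8 had 41.6, 18.2 and 11.1 TPM in A-C, against 44.7, 47 and 36.9 TPM in C, where the groups overlap (adjusted p = 0.201). Insig2 passed with any 1 of the 9 libraries left out, and each other call named here ended without at least 1 of A-C replicates 9 and 12 and C replicates 2, 3 and 4.

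Several genes of fatty acid breakdown rose. Of 20 tested genes of mitochondrial beta oxidation 5 rose, with a median of 0.31. Acadvl, the first dehydrogenase for very long chains, had 107, 120.2 and 110.3 TPM in A-C, against 24.8, 45.6 and 50.9 TPM in C (log2 ratio 1.52 ± 0.25 (SE), adjusted p = 0.00773). Etfdh, which passes electrons from fatty acids to ubiquinone, had 54.3, 61.3 and 54.1 TPM in A-C, against 25.5, 29.8 and 39 TPM in C (log2 fold change 0.85 ± 0.16, SE). Hadha, Cpt2 and Acad11 rose by 0.66, 0.54 and 0.71. In fits without 1 A-C or C library 1 to 6 (fewest without A-C replicate 9 or C replicate 3) genes of the list were higher. Of the calls named here, Acadvl held in each fit without 1 library, whereas each of the rest was lost without at least 1 of A-C replicates 6 and 9 and C replicates 2, 3 and 4.

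In peroxisomes 3 of 17 genes rose. Crat, the carnitine acetyltransferase, had 35.5, 44.9 and 27.3 TPM in A-C, against 10.8, 9.73 and 9.29 TPM in C (log2 ratio 1.73 ± 0.22 (SE), adjusted p = 0.00386). Crot, the octanoyltransferase that exports shortened chains, had 206, 263 and 159 TPM in A-C, against 57, 71 and 98.7 TPM in C (log2 fold change 1.46 ± 0.23, SE). The A-C libraries lay above the C libraries in both genes. Of 11 thioesterases and acyltransferases 4 rose: Acot2, a mitochondrial thioesterase, had 24.6, 55.7 and 27 TPM in A-C, against 6.08, 3.91 and 1.96 TPM in C (log2 fold change 2.87 ± 0.44, SE). Acnat1 had 30.6, 30.6 and 30 TPM in A-C, against 11.9, 12 and 14.7 TPM in C, Acnat2 rose by 3.68 and Acot8 by 0.51. The related Acot1 had 49.5, 58.5 and 8.16 TPM in A-C, against 13.8, 8.38 and 10 TPM in C and Acot3 31.8, 40.1 and 4.5 TPM in A-C, against 4.6, 3.96 and 2.27 TPM in C; in both, A-C replicates 6 and 9 were high and replicate 12 lay below the highest C library, and neither passed. The calls of Crat, Crot, Acot2, Acnat1 and Acnat2 held whichever library was left out, and the others named here each ended without at least 1 of A-C replicates 6, 9 and 12 and C replicates 2, 3 and 4.

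The PPAR alpha targets Cyp4a14 and Cyp4a10, which hydroxylate fatty acids at the tail, rose by 5.12 and 2.91. Cyp4a12a, a male-biased member of the same family, moved the other way with 65, 42.8 and 24.6 TPM in A-C, against 106, 215 and 255 TPM in C (log2 fold change -2.11 ± 0.42, SE). Cyp4b1 rose with 19.3, 18.4 and 13.6 TPM in A-C, against 9.67, 6.54 and 6.22 TPM in C. In ketogenesis 3 of 14 genes rose, among them Slc16a1, the monocarboxylate transporter, by 1.49, and Pdk4, a kinase that shuts off pyruvate dehydrogenase, by 2.35. Ppara itself had 37.4, 43.8 and 25.5 TPM in A-C, against 28.7, 19.3 and 20.6 TPM in C and did not pass (adjusted p = 0.181). No single library, left out, ended the calls of Cyp4a14, Cyp4a10 and Pdk4, while each other named call was lost on leaving out at least 1 of A-C replicates 9 and 12, M replicate 27 and C replicates 2, 3 and 4.

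Apolipoprotein genes were lower where they changed: 6 of 16 fell, with a median of -0.39. Apoa1, the main protein of high-density lipoprotein, had 20291, 15942 and 16382 TPM in A-C, against 35958, 35996 and 29532 TPM in C (log2 ratio -0.95 ± 0.21 (SE), adjusted p = 0.0213). Apoc1 had 12187, 10997 and 8087 TPM in A-C, against 18299, 17674 and 17496 TPM in C. Apoc3, an inhibitor of triglyceride clearance, had 5302, 4709 and 3972 TPM in A-C, against 8653, 7665 and 6838 TPM in C. The A-C libraries lay below the C libraries in each. Apoa4, Apoc4 and Apof fell by 0.74, 0.71 and 0.71. Apob, the scaffold of very-low-density lipoprotein, had a log2 fold change of 0.46 and did not pass (adjusted p = 0.094), nor did Mttp, its loading protein (-0.07, 0.731). On the TPM as deposited the list had 2 genes higher and 1 lower, and without 1 A-C or C library 0 to 6 (fewest without A-C replicate 9 or C replicate 3) genes fell. The calls named here were each lost on leaving out at least 1 of A-C replicates 6, 9 and 12, M replicate 26 and C replicates 2, 3 and 4.

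Bile acid synthesis genes spread widely and did not pass, apart from Nr1h4, which encodes the bile acid receptor FXR (95.6, 113 and 106 TPM in A-C, against 161, 137 and 138 TPM in C; adjusted p = 0.0481); on the TPM as deposited 1 gene of the 14 was higher and 0 lower. Cyp7a1, the rate-limiting enzyme of bile acid synthesis, had 23.7, 30.9 and 0.962 TPM in A-C, against 56.7, 69 and 109 TPM in C. Replicate 12 stood far below the rest, and the gene did not pass (log2 fold change -2.72, adjusted p = 0.16), although the groups do not overlap. Cyp7b1, of the alternative path, had 56, 34.6 and 33.6 TPM in A-C, against 70.8, 172 and 365 TPM in C (adjusted p = 0.0629). Of 15 transporters of bile acids and organic ions 3 rose. Abcc4, an export pump of the sinusoidal side, had 7.99, 5.59 and 2.95 TPM in A-C, against 0.385, 0.329 and 0.486 TPM in C (log2 ratio 2.14 ± 0.27 (SE), adjusted p = 0.00386). Abcc3, a related pump, had 93.6, 61.7 and 42.4 TPM in A-C, against 25.6, 32.1 and 20.7 TPM in C. In ethanol metabolism 1 of 14 genes fell, Adh7 (by 0.78), and 1 rose, Acss3, a mitochondrial acyl-CoA synthetase (by 1.01), against 2 higher and 0 lower on the TPM as deposited. Abcc4 passed with any 1 of the 9 libraries left out, and each other call named here ended without at least 1 of A-C replicates 6, 9 and 12, M replicates 24, 26 and 27 and C replicates 2, 3 and 4.

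Most of the tested Cyp2a and Cyp2b genes, a group that includes targets of CAR, rose. Of 7 tested genes 5 rose, and 5 rose without any 1 of the 6 A-C and C libraries. Cyp2a5, the coumarin hydroxylase, had 2212, 1469 and 1359 TPM in A-C, against 649, 404 and 585 TPM in C (log2 ratio 1.61 ± 0.27 (SE), adjusted p = 0.00901). Cyp2b9, Cyp2b10 and Cyp2a22 rose by 5.29, 5.25 and 3.98. Cyp2b13 was listed at 0 in each C library and had 1.24, 0.321 and 0.345 TPM in A-C, and did not pass (adjusted p = 0.055). Cyp2a12, another member, had a log2 fold change of -0.01. Cyp2a4 and Cyp2a5 are near-identical copies, and how the counting split their reads is not given in the sources used here. Of the calls named here, Cyp2a5, Cyp2b9, Cyp2b10, Cyp2a22 and Cyp2a4 held in each fit without 1 library.

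In the Cyp2c family 2 of 13 genes rose and 1 fell (4 higher and 1 lower on the TPM as deposited). Cyp2c39 had 7.05, 8.06 and 3.02 TPM in A-C, against 1.52, 0.484 and 0.744 TPM in C and Cyp2c29 rose by 2.60, whereas Cyp2c23, an arachidonic acid epoxygenase, had 209.6, 170.3 and 76.4 TPM in A-C, against 427, 460.4 and 421 TPM in C (log2 ratio -1.63 ± 0.33 (SE), adjusted p = 0.0151). Of 4 tested Cyp3a genes 2 rose, Cyp3a59 with 28.3, 16 and 16 TPM in A-C, against 5.86, 5.54 and 6.28 TPM in C and Cyp3a13 by 1.78. Cyp3a11, the main inducible form, had 1575, 1234 and 461 TPM in A-C, against 397, 353 and 367 TPM in C, without overlap, and did not pass (adjusted p = 0.0624). Cyp2j9 had 1.05, 1.65 and 1.24 TPM in A-C, against 7.65, 6.6 and 7.76 TPM in C, and fell by 1.85, and Cyp2u1 fell by 2.15. Cyp39a1, which hydroxylates oxysterols, had 65.1, 53.6 and 48.5 TPM in A-C, against 19.8, 17.4 and 17.2 TPM in C (log2 ratio 1.56 ± 0.15 (SE), adjusted p = 0.00172). The calls of Cyp2c29, Cyp3a59, Cyp3a13, Cyp2j9, Cyp2u1 and Cyp39a1 held whichever library was left out, and the others named here each ended without at least 1 of A-C replicate 9 and C replicate 3.

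UDP-glucuronosyltransferases, which attach glucuronic acid to bilirubin, steroids and drugs, split: 5 of 17 rose and 3 fell. Ugt1a9 had 61.3, 67.6 and 35.9 TPM in A-C, against 3.41, 7.62 and 5.63 TPM in C (log2 ratio 3.10 ± 0.32 (SE), adjusted p = 0.00184). Ugt1a1, the bilirubin enzyme, had 81.9, 60.2 and 49 TPM in A-C, against 17.1, 19.4 and 26.1 TPM in C. Ugt1a5 had 25.1, 22 and 19.1 TPM in A-C, against 6.49, 6.96 and 4.93 TPM in C. Each A-C library was above each C library in all 3. In the opposite direction Ugt2b38 had 0.316, 0.318 and 0.639 TPM in A-C, against 8.51, 28.8 and 60.6 TPM in C (log2 ratio -4.19 ± 0.68 (SE), adjusted p = 0.00807), with C replicate 2 the lowest control, and Ugt2b37 had 0.594, 0.191 and 0.274 TPM in A-C, against 1.03, 3.22 and 6.61 TPM in C. The other fall was in Ugt1a6a, so the Ugt1a forms did not all rise. Ugt1a forms share their last exons and Ugt2b genes are close copies, so values of single forms are uncertain. Of 10 sulfotransferases 1 fell (1 higher and 1 lower on the TPM as deposited), Sult2a8 with 396, 241 and 135 TPM in A-C, against 594, 638 and 753 TPM in C. Of 12 carboxylesterases 1 fell, Ces3b with 154, 103 and 42.9 TPM in A-C, against 392, 438 and 441 TPM in C. No single library, left out, ended the calls of Ugt1a9, Ugt1a1, Ugt1a5 and Ugt2b38, while each other named call was lost on leaving out at least 1 of A-C replicates 9 and 12 and C replicates 2, 3 and 4.

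Of 21 glutathione transferase genes 6 rose. Gstm3 rose by 2.88, Gsta2 by 2.63 and Gstm2 by 1.39. Gsta1 had 4.6, 1.3 and 11.8 TPM in A-C, against 0, 0.613 and 0.419 TPM in C (log2 fold change 2.06 ± 0.52, SE). Gstm4 had 85.2, 65 and 52.8 TPM in A-C, against 14.3, 29.7 and 27 TPM in C. Gstm1, the most abundant of the 6, had 4212, 2332 and 2969.8 TPM in A-C, against 1461, 1627 and 1239 TPM in C. The Gstp1 transferase, by contrast, had 972, 892 and 580.2 TPM in A-C, against 643, 1817 and 1862 TPM in C, where the groups overlap. Without 1 A-C or C library 3 to 6 (fewest without C replicate 3) were higher. Gstm genes are close copies, so the split of reads between them is uncertain. In fits without any 1 library Gstm3 and Gsta2 still passed, whereas the remaining named calls were each lost without at least 1 of A-C replicates 6 and 9 and C replicates 2, 3 and 4.

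Among 19 tested targets of NRF2 and genes of glutathione synthesis (22 listed) 7 rose, with a median of 0.38. Cbr3, a carbonyl reductase, had 4.94, 3.42 and 4.41 TPM in A-C, against 0.68, 0.818 and 0.559 TPM in C (log2 ratio 1.63 ± 0.21 (SE), adjusted p = 0.00386), and Nqo1, a quinone reductase, rose by 1.83. Hmox1, which opens heme, had 20.8, 34.8 and 31.9 TPM in A-C, against 10.5, 9.48 and 11.8 TPM in C (adjusted p = 0.0486). Htatip2 had 67.9, 58.3 and 35.2 TPM in A-C, against 15.3, 23.8 and 21.7 TPM in C. Srxn1, which repairs peroxiredoxins, had 30.1, 43.7 and 41.2 TPM in A-C, against 11.8, 18.4 and 16.2 TPM in C. Txnrd1, the cytosolic thioredoxin reductase, had 33.8, 52.4 and 47.5 TPM in A-C, against 19.1, 22.1 and 22 TPM in C. The A-C values lay above the C values in each of these. Nfe2l2, which encodes NRF2, had a log2 fold change of -0.36, and the glutathione synthesis genes Gclc (0.42), Gclm (-0.21) and Gss (-0.10) did not pass. Without 1 A-C or C library 2 to 6 (fewest without A-C replicate 9) members were higher. Cbr3 and Nqo1 passed with any 1 of the 9 libraries left out, and each other call named here ended without at least 1 of A-C replicates 9 and 12, M replicates 26 and 27 and C replicates 2, 3 and 4.

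RefSeq promoter windows were found for 16 of the 19 genes. Srxn1, at chr2:152105274-152105573 (+ strand), and Txnrd1, at chr10:82858956-82859255 (+ strand) (1 of 3 windows), rose and hold the core of the antioxidant response element TGACNNNGC, to which NRF2 binds; capitals mark it, here on the opposite strand as GCNNNGTCA.
Srxn1: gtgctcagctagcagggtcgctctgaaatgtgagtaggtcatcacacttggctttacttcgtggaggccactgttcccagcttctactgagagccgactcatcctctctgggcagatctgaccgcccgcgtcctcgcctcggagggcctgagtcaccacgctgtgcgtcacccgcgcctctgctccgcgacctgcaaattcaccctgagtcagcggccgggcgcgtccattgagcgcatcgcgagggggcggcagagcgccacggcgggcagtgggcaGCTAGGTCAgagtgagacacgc
Txnrd1: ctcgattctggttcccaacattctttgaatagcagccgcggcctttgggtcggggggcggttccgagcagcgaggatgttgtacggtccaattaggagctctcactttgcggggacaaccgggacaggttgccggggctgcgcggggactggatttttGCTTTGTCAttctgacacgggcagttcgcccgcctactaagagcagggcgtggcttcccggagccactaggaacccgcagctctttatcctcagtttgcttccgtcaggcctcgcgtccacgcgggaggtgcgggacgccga
This core was in 10 of the list's 21 windows and in 12.4% of all 32851 windows, both strands searched. Of the 9 genes that hold it, 3 rose (Htatip2, Srxn1 and Txnrd1) and 6 did not pass.

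**Figure D3:**
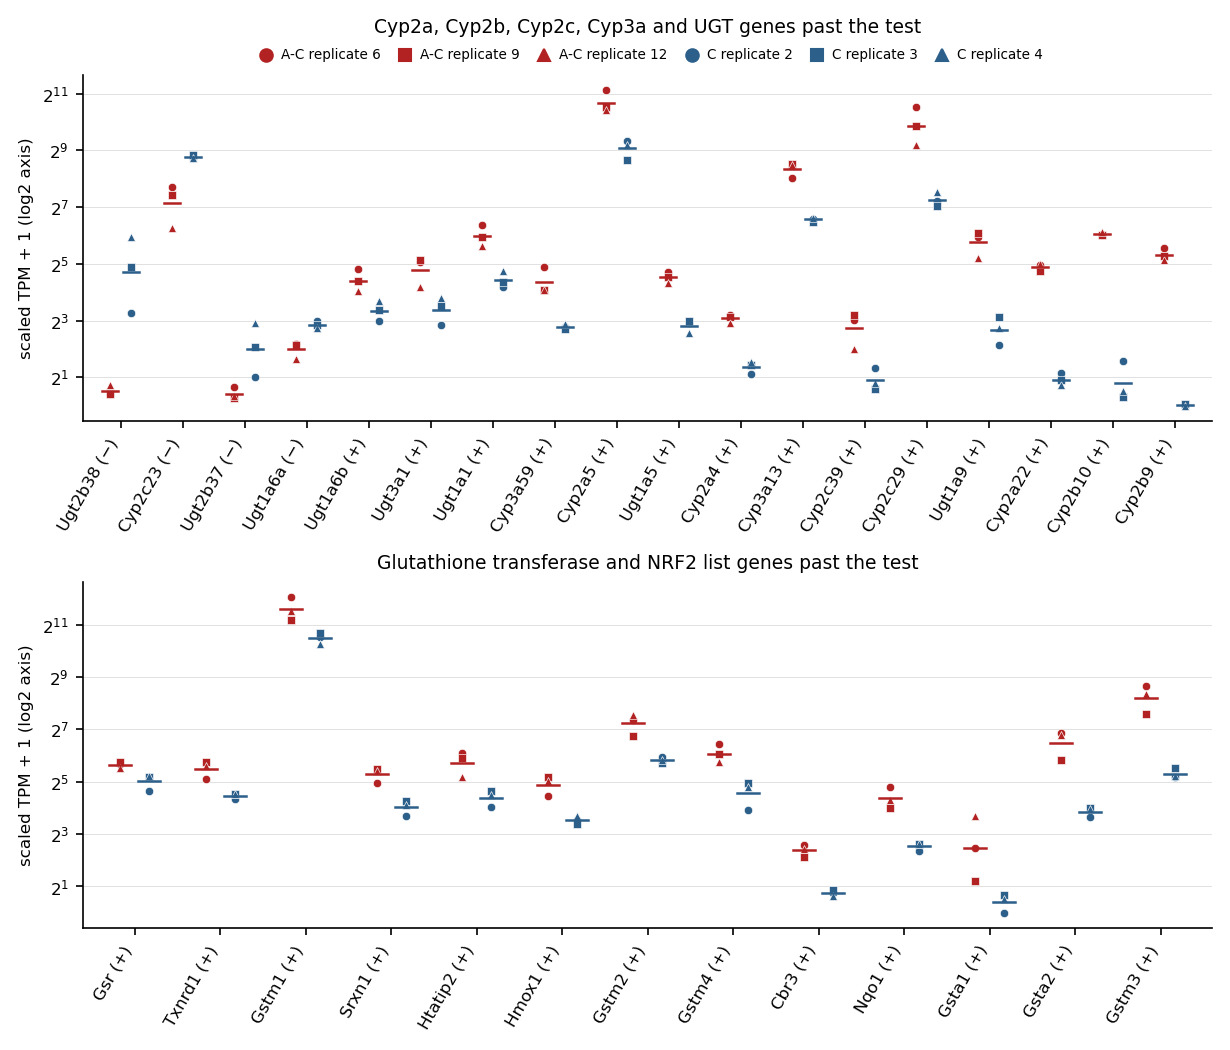
Scaled TPM + 1 (y axis, log2) of the Cyp2a, Cyp2b, Cyp2c, Cyp3a and UGT genes (top) and of the glutathione transferase and NRF2 list genes (bottom) that passed adjusted p 0.05, in A-C (red, left) and C (blue, right), with lines at the means of the log values. Genes marked (+) rose and genes marked (−) fell: of the genes drawn, Ugt2b38, Cyp2c23, Ugt2b37 and Ugt1a6a are the 4 that fell.

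Major urinary proteins, pheromone carriers that the male pattern of growth hormone secretion keeps high, were among the deepest falls. Of 17 tested major urinary protein genes (22 listed), 15 fell, with a median of -3.14; without 1 A-C or C library 9 to 15 (fewest without C replicate 3) fell. The family summed to 17648, 14565 and 6837 TPM in A-C, against 52332, 76812 and 90565 TPM in C. Mup14 had 33.2, 25.1 and 10.4 TPM in A-C, against 167, 441 and 796 TPM in C (log2 ratio -4.17 ± 0.67 (SE), adjusted p = 0.00807). Mup12 had 22.9, 9.27 and 6.2 TPM in A-C, against 99.7, 134 and 242 TPM in C. Mup18 had 9.8, 6.81 and 3.71 TPM in A-C, against 30.5, 119 and 289 TPM in C. C replicate 2 was the lowest control in each of the 3, and A-C replicate 12 the lowest library. Mup3, the most abundant member, had 10445, 9534 and 4973 TPM in A-C, against 29284, 30710.1 and 29580.0 TPM in C (log2 fold change -1.92 ± 0.28, SE). Mup2 (-0.17) and Mup22 (-0.70) did not pass. The members are nearly alike in sequence, which makes the split of reads between them uncertain. The sum over the family depends less on that split. How reads that match several members were counted is not given in the sources used here. Of the members named here, Mup14, Mup12 and Mup3 held in each fit without 1 library, and the call of Mup18 was lost without C replicate 3.

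Of 15 steroid enzymes 3 fell. Srd5a1, the steroid 5 alpha-reductase, had 31.4, 26.5 and 6.31 TPM in A-C, against 81.2, 116 and 102 TPM in C (log2 fold change -2.41 ± 0.63, SE). Hsd3b5 had 31.7, 1.61 and 0.139 TPM in A-C, against 81.6, 193 and 293 TPM in C (adjusted p = 0.0422), and Hsd17b6 fell by 2.69. Of the calls named here, Hsd17b6 held in each fit without 1 library, whereas each of the rest was lost without at least 1 of A-C replicates 9 and 12, M replicate 27 and C replicates 2, 3 and 4. Of 11 genes of the growth hormone, STAT5 and IGF axis 0 passed limma's adjusted test and 4 had an unadjusted p under 0.05, with 0 called by voom, against 2 higher and 0 lower on the TPM as deposited. Igf1, the growth factor induced by growth hormone, had 95.5, 128 and 144 TPM in A-C, against 190.4, 171 and 193 TPM in C (adjusted p = 0.0551). Ghr, the receptor, had 101, 77.6 and 43.2 TPM in A-C, against 111, 119 and 137 TPM in C (0.112). Socs2, a feedback inhibitor, had 0.76, 1.34 and 1.02 TPM in A-C, against 1.92, 1.42 and 1.6 TPM in C (0.485). In each of these 3 the A-C libraries lay below the C libraries.

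Acute phase genes spread widely among the A-C libraries. Of 20 tested genes 6 rose, or 30% against 9.71% of all genes, with a median log2 fold change of 2.07. The A-C libraries lay above the C libraries in 14 of the 20, against 22.8% of all genes. Saa1, a serum amyloid carried on lipoproteins, had 19.8, 1261 and 13440.2 TPM in A-C, against 27, 28.9 and 30 TPM in C (log2 fold change 4.58, adjusted p = 0.172). Replicate 6 lay below all 3 controls, and replicate 12 held by far the most. Orm2, an orosomucoid, had 15.2, 256 and 684 TPM in A-C, against 9.97, 9.51 and 9.5 TPM in C (adjusted p = 0.101). Genes with a narrower spread passed: Lbp, the lipopolysaccharide-binding protein, had 50.3, 95.3 and 150.4 TPM in A-C, against 22.8, 19.6 and 19.1 TPM in C (log2 ratio 2.08 ± 0.39 (SE), adjusted p = 0.0133). Fgl1 had 194, 695 and 920.0 TPM in A-C, against 100.2, 88.1 and 119.5 TPM in C. Itih3 had 442, 868 and 1639 TPM in A-C, against 332, 272 and 319 TPM in C. Steap4, a metalloreductase, had 62.1, 397 and 996 TPM in A-C, against 28.8, 30.3 and 38 TPM in C. Orm3 rose by 2.71 and Cd14, the lipopolysaccharide co-receptor, by 1.37. Without A-C replicate 6, 15 of the 20 were higher, and without A-C replicate 9 or C replicate 3 none was. The calls named here each ended without at least 1 of A-C replicates 9 and 12, M replicates 26 and 27 and C replicates 2, 3 and 4.

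The summed level of the 20 genes was 15802, 42110.3 and 126983 TPM in A-C, against 12141, 13051 and 14675 TPM in C. Fga, a fibrinogen gene, followed the same order, with 2394, 8339 and 20867 TPM in A-C, against 1234, 1397 and 1469 TPM in C, and did not pass (adjusted p = 0.0641). Of the interleukin-6 and STAT3 genes 3 of 17 rose: Stat3 by 1.66, Il6st, the shared receptor chain, with 27, 48.9 and 46.2 TPM in A-C, against 16.8, 13.8 and 15.1 TPM in C, and Il1rn, the interleukin-1 antagonist, with 3.34, 1.79 and 8.39 TPM in A-C, against 0.58, 1.01 and 0.606 TPM in C. Socs3, the feedback inhibitor, had 4.39, 13.4 and 49.8 TPM in A-C, against 3.31, 5.44 and 3.6 TPM in C, and did not pass (adjusted p = 0.242). Nfkb1 rose by 0.40. Among chemokines and neutrophil markers (12 tested of 20 listed) the call was Ccl5, a T cell chemokine, which fell with 2.09, 2.09 and 0.855 TPM in A-C, against 5.38, 4.12 and 3.13 TPM in C. The neutrophil marker S100a9 had 2.43, 23.4 and 34.3 TPM in A-C, against 0.769, 2.62 and 3.26 TPM in C. Cxcl1, a neutrophil chemokine, had 3.4, 23.1 and 134 TPM in A-C, against 8.32, 7.5 and 10.1 TPM in C; both spread widely and overlap with C, and neither passed (adjusted p = 0.148 and 0.479). No single library, left out, ended the call of Stat3, while each other named call was lost on leaving out at least 1 of A-C replicates 6, 9 and 12 and C replicates 2, 3 and 4.

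**Figure D4:**
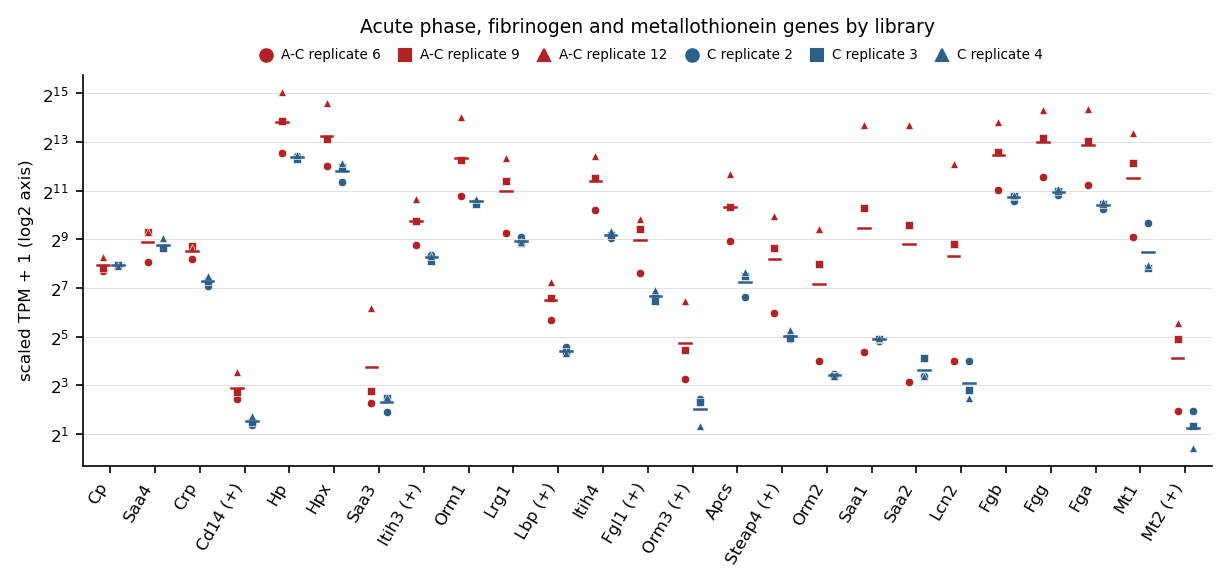
Scaled TPM + 1 (y axis, log2) of the 20 acute phase genes, the 3 fibrinogen genes and the metallothioneins Mt1 and Mt2 in A-C (red, left) and C (blue, right), with lines at the means of the log values; genes marked (+) rose at adjusted p 0.05. In Saa1 A-C replicate 6 (circle) stands at 19.8 TPM, just below the C libraries, and replicate 12 (triangle) at 13440.2 TPM.

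Other secreted protein families changed in both directions. Serpina12, the adipokine vaspin, had 19.1, 15.6 and 17.9 TPM in A-C, against 65.6, 115 and 125 TPM in C (log2 ratio -2.42 ± 0.34 (SE), adjusted p = 0.00518). Serpina1e, an antitrypsin of male-biased expression, had 3077, 3490.2 and 2425 TPM in A-C, against 5672, 17337 and 22939.9 TPM in C, while Serpina3m rose by 2.87 and Serpina3f by 0.87. Serpina3n had 622, 2481 and 9218 TPM in A-C, against 308, 319 and 296 TPM in C, without overlap, and did not pass (adjusted p = 0.0569). In the complement system 6 of 25 genes rose and 4 fell (8 higher and 1 lower on the TPM as deposited). The rises included C3, Cfb, an alternative pathway protease, with 2.95, 4.73 and 3.7 TPM in A-C, against 0.728, 0.83 and 1.31 TPM in C, and C1qb and C1qc, made by macrophages, by 0.80 and 0.72. The falls included C6, a component of the membrane attack complex, with 28.8, 38.5 and 21.2 TPM in A-C, against 74.7, 150.2 and 187 TPM in C (log2 ratio -2.12 ± 0.35 (SE), adjusted p = 0.00807), Mbl2, a lectin that starts the pathway, with 457, 419 and 180.5 TPM in A-C, against 607, 942 and 832 TPM in C, and C9, the pore protein, with 292, 252 and 158 TPM in A-C, against 336, 488 and 657 TPM in C. Serpina1 and Serpina3 genes are close copies, so values of single forms are uncertain. In fits without any 1 library Serpina12, Serpina3m, C3 and C6 still passed, whereas the remaining named calls were each lost without at least 1 of A-C replicates 6, 9 and 12, M replicates 26 and 27 and C replicates 2, 3 and 4.

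Of 24 coagulation genes 3 rose and 2 fell (8 higher and 1 lower on the TPM as deposited). These shares, 12.5% higher and 8.33% lower, are close to the 9.71% and 7.17% over all genes. Plg, the plasminogen gene, had 934, 839 and 967 TPM in A-C, against 395, 522 and 574 TPM in C (log2 ratio 0.89 ± 0.18 (SE), adjusted p = 0.0143), F8, which liver endothelial cells make, rose by 0.67, and Serpinf2, the plasmin inhibitor, by 0.65. Klkb1, the plasma kallikrein gene, had 65.7, 41.2 and 13.6 TPM in A-C, against 129.7, 146 and 148 TPM in C, and Proc, which encodes protein C, fell by 0.75. Each call named here ended without at least 1 of A-C replicates 9 and 12, M replicates 26 and 27 and C replicates 2, 3 and 4.

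Interferon-stimulated genes were lower where they changed: 5 of 32 fell, with a median of -0.42. Rtp4 had 5.63, 6.66 and 3.69 TPM in A-C, against 13.2, 11.7 and 13.7 TPM in C (log2 ratio -1.16 ± 0.19 (SE), adjusted p = 0.00807). Usp18, which removes ISG15 from proteins, had 2.08, 1.88 and 1.21 TPM in A-C, against 3.79, 7.47 and 8.6 TPM in C. Irf7, the factor that amplifies interferon, had 8.79, 11.1 and 4.28 TPM in A-C, against 13.9, 26.5 and 21.7 TPM in C. Xaf1 and Oas2 fell by 0.72 and 0.70. Irf1, an activator of interferon genes, had a log2 fold change of 0.28 and did not pass. Without 1 A-C or C library the list held 1 to 4 (fewest without A-C replicate 12 or C replicate 3 or C replicate 4) lower genes. Of the calls named here, Rtp4 held in each fit without 1 library, whereas each of the rest was lost without at least 1 of A-C replicates 6, 9 and 12, M replicates 26 and 27 and C replicates 2, 3 and 4.

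Of 29 genes of the unfolded protein and integrated stress responses, 3 rose and 1 fell (5 higher and 0 lower on the TPM as deposited), where the higher share of 10.3% is close to the 9.71% over all genes. Psat1, of serine synthesis, had 1.82, 2.18 and 4.21 TPM in A-C, against 0.189, 0.23 and 0.33 TPM in C (log2 ratio 1.53 ± 0.25 (SE), adjusted p = 0.00807). Asns, the asparagine synthetase, had 5.84, 5.54 and 19.7 TPM in A-C, against 0.569, 1.34 and 3.55 TPM in C, and Canx, the lectin chaperone calnexin, rose by 0.84, while Sesn2 fell by 0.60. The chaperone BiP, encoded by Hspa5, had 236, 612 and 1634 TPM in A-C, against 308, 376 and 730.3 TPM in C, in the same order among the A-C libraries as the acute phase genes, and did not pass (adjusted p = 0.662). Mt2, a metallothionein, passed (adjusted p = 0.0441) with groups that overlap, at 2.87, 28.6 and 45.7 TPM in A-C, against 2.9, 1.49 and 0.341 TPM in C. Of iron genes 3 of 18 rose: the ferritin chain Fth1 by 0.53, Hfe, a hepcidin regulator, by 0.78 and the transferrin receptor Tfrc by 0.85. Hamp, which encodes hepcidin, had 922, 1861 and 4612 TPM in A-C, against 6555, 5522 and 3964 TPM in C, where the groups overlap (adjusted p = 0.35). The call of Psat1 held whichever library was left out, and the others named here each ended without at least 1 of A-C replicates 6, 9 and 12, M replicates 26 and 27 and C replicates 2, 3 and 4.

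Of 19 heat shock genes and their co-chaperones 4 rose. Hsp90aa1, the inducible HSP90, had 229, 269 and 144 TPM in A-C, against 83.6, 77.3 and 99.8 TPM in C (log2 ratio 1.25 ± 0.25 (SE), adjusted p = 0.0153). Hsph1, a nucleotide exchange factor of HSP70, had 36.6, 47 and 29.5 TPM in A-C, against 13.9, 17.2 and 22.3 TPM in C. Hspd1, the mitochondrial HSP60, had 515, 513 and 415 TPM in A-C, against 199, 264 and 296 TPM in C. Hspa4l rose by 1.004. Each A-C value was above each C value in the 4 genes. Each of the calls named here was lost on leaving out at least 1 of A-C replicate 9 and C replicates 2, 3 and 4. Of the 19, 14 have a RefSeq promoter window. Hsph1, at chr5:149636266-149636565 (minus strand), and Hspd1, at chr1:55087883-55088182 (minus strand), rose and hold the heat shock element bound by HSF1, in capitals. It was searched on both strands as 3 units in alternating orientation (GAA, TTC, GAA) with any 2 bases between them, and in Hspd1 matches on the 2 strands overlap.
Hsph1: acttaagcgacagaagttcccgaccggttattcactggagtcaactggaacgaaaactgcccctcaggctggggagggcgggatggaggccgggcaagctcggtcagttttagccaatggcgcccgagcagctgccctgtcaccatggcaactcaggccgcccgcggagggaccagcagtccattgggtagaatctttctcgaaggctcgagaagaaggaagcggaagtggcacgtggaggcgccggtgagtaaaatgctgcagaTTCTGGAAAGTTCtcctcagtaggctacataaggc
Hspd1: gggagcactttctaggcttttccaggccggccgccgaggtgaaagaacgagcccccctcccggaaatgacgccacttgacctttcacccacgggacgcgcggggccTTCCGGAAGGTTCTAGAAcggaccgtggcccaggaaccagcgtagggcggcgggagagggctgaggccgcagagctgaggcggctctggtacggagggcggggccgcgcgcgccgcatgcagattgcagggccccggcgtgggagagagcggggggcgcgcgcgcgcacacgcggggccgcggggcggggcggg
The element was in 5 of the list's 19 windows, of Chordc1, Hspd1, Hspe1 and Hsph1, and in 0.603% of all 32851 windows. Chordc1 and Hspe1 did not pass, so the letters occur in members that rose and in members that did not.

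Glucose metabolism changed in single steps. Of 20 glycolysis genes 3 rose (15%) and 1 fell (5%), against 9.71% and 7.17% of all genes. Pgk1, the phosphoglycerate kinase, had 285, 253 and 249.5 TPM in A-C, against 75.2, 105 and 119 TPM in C (log2 ratio 1.41 ± 0.19 (SE), adjusted p = 0.00425), Pgam1 rose by 0.81, and Pkm, the pyruvate kinase of non-hepatocyte tissue, by 0.48. Pfkfb3, which makes the activator of phosphofructokinase, had 2.19, 2.12 and 3.1 TPM in A-C, against 10.1, 11.2 and 14.7 TPM in C (log2 ratio -1.90 ± 0.33 (SE), adjusted p = 0.0102). Slc2a2, the glucose transporter, had 118, 66.7 and 26 TPM in A-C, against 183, 185 and 178 TPM in C and did not pass (adjusted p = 0.0698). Of 18 genes of gluconeogenesis and glycogen 3 rose (16.7%) and 1 fell (5.56%), against the same shares of all genes. Gys2, the liver glycogen synthase, had 96, 94 and 44.9 TPM in A-C, against 249.5, 275 and 215 TPM in C (log2 ratio -1.71 ± 0.29 (SE), adjusted p = 0.00927). Pcx, the pyruvate carboxylase, had 254, 276 and 307 TPM in A-C, against 151, 169 and 141 TPM in C. Fbp1, the fructose bisphosphatase, had 1759, 1671 and 1471 TPM in A-C, against 550.1, 925 and 867 TPM in C. Pck1 had a log2 fold change of -1.40 and G6pc of -1.62, and neither passed (adjusted p = 0.146 and 0.213). In fits without any 1 library Pgk1, Pfkfb3, Gys2 and Pcx still passed, whereas the remaining named calls were each lost without at least 1 of A-C replicates 9 and 12 and C replicates 2, 3 and 4.

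In nitrogen metabolism 2 of 16 genes rose and 1 fell (4 higher and 1 lower on the TPM as deposited). The shares of 12.5% higher and 6.25% lower are close to the 9.71% and 7.17% over all genes. Otc, the urea cycle enzyme that makes citrulline, had 175, 131 and 95.6 TPM in A-C, against 300.2, 315 and 328 TPM in C (log2 ratio -1.27 ± 0.21 (SE), adjusted p = 0.00864). Glul, the glutamine synthetase of pericentral hepatocytes, had 731, 1042 and 1093 TPM in A-C, against 407, 389 and 635 TPM in C. Rhbg, an ammonium transporter of the same cells, had 11.2, 7.99 and 9.65 TPM in A-C, against 2.05, 1.99 and 4.19 TPM in C. Of 36 genes of amino acid breakdown 4 rose, where the share of 11.1% is close to the 9.71% over all genes. Of the 4, 3 belong to methionine metabolism: Mat1a, which makes S-adenosylmethionine, had 3309, 3945 and 4971 TPM in A-C, against 1784, 1618 and 1578 TPM in C (log2 ratio 1.28 ± 0.18 (SE), adjusted p = 0.00536). Gnmt, which uses it, had 5739, 3608 and 2742 TPM in A-C, against 1025, 1492 and 1477 TPM in C, and Cbs rose by 0.56. Bckdha, of branched-chain breakdown, rose by 0.95. Otc and Mat1a passed with any 1 of the 9 libraries left out, and each other call named here ended without at least 1 of A-C replicates 6, 9 and 12, M replicates 26 and 27 and C replicates 2 and 3.

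Of 23 pericentral and Wnt target genes 8 rose and 1 fell (10 higher and 0 lower on the TPM as deposited), with a median of 0.40. Besides Glul and Rhbg, Slc13a3 rose by 1.15, Axin2, a direct Wnt target, with 2.89, 3.09 and 3.88 TPM in A-C, against 2.18, 1.26 and 1.39 TPM in C, and Slc1a2, a glutamate transporter, by 0.70, while Rgn fell by 0.92. Of 22 periportal genes 1 rose and 3 fell (2 higher and 2 lower on the TPM as deposited), with a median of -0.57. Cdh1, E-cadherin, had 5.91, 3.47 and 4.36 TPM in A-C, against 7.9, 15 and 13.2 TPM in C. No test of the difference between the zone lists was run. Without 1 A-C or C library 1 to 6 (fewest without C replicate 3) pericentral genes were higher. The named calls were each lost without at least 1 of A-C replicates 6, 9 and 12, M replicates 26 and 27 and C replicates 2, 3 and 4.

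Of 25 nuclear receptors 2 rose and 2 fell (5 higher and 1 lower on the TPM as deposited), shares close to those over all genes. Rxra, the shared partner of many of them, had 129.5, 154 and 131 TPM in A-C, against 72.4, 82.8 and 88.3 TPM in C (log2 ratio 0.76 ± 0.15 (SE), adjusted p = 0.0141). Pparg had 7.47, 8.94 and 5 TPM in A-C, against 3.52, 4.94 and 3.66 TPM in C. Esrra, a regulator of oxidative metabolism, had 10.5, 6.24 and 5.88 TPM in A-C, against 15.7, 18.7 and 17.8 TPM in C, and Nr1h4 fell by 0.46. Hnf4a had 234, 374 and 298 TPM in A-C, against 255, 229 and 224 TPM in C (adjusted p = 0.288). Nr1i3, which encodes CAR, had 25.3, 22.3 and 14.1 TPM in A-C, against 18.7, 15.9 and 15.5 TPM in C (0.503). Nr1i2, which encodes PXR, had 94.5, 88.4 and 32.9 TPM in A-C, against 104, 95.1 and 91.1 TPM in C (0.428). In each of these the groups overlap. Of 16 factors of hepatocyte identity 3 rose, or 18.8% against 9.71% of all genes. Atf5, an activator of the mitochondrial stress response, had 903, 1072 and 718 TPM in A-C, against 161, 164 and 209 TPM in C (log2 ratio 2.32 ± 0.31 (SE), adjusted p = 0.00429), and Onecut2 rose by 0.74. The call of Atf5 held whichever library was left out, and the others named here each ended without at least 1 of A-C replicates 6, 9 and 12, M replicates 24, 26 and 27 and C replicates 2, 3 and 4.

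Most endothelial markers rose in A-C. Of 22 tested, 13 rose, against 9.71% of all genes called higher, and the median was 0.69. In bulk liver fewer or more cells of a type and less or more RNA per cell cannot be told apart. Clec4g, a lectin of sinusoidal endothelium, had 53.1, 64.4 and 52.2 TPM in A-C, against 23.9, 16.2 and 22.9 TPM in C (log2 ratio 1.40 ± 0.22 (SE), adjusted p = 0.00708). Gpr182 had 21.7, 21.5 and 20.9 TPM in A-C, against 11.7, 6.45 and 8.4 TPM in C. Pecam1 had 6.8, 8.1 and 7.78 TPM in A-C, against 4.79, 2.62 and 2.86 TPM in C. The A-C libraries lay above the C libraries in these, and C replicate 2 was the control closest to A-C in each. Lyve1, a hyaluronan receptor, had 16, 9.48 and 27.1 TPM in A-C, against 6.79, 3.24 and 3.17 TPM in C, Bmp2, the signal by which the endothelium sets hepcidin, rose by 1.03, and Rspo3, a Wnt amplifier, by 0.74. Stab1 (0.06) and Eng (0.17) did not pass. The markers summed to 314, 315 and 279 TPM in A-C, against 214, 125 and 151 TPM in C, and without 1 A-C or C library 4 to 15 (fewest without C replicate 3) were higher. No single library, left out, ended the calls of Clec4g and Gpr182, while each other named call was lost on leaving out at least 1 of A-C replicate 9 and C replicates 3 and 4.

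Of 17 tested Kupffer cell and macrophage markers (23 listed) 6 rose. Cd5l had 42.8, 58.6 and 41 TPM in A-C, against 16.3, 22.8 and 32.1 TPM in C (log2 ratio 1.002 ± 0.23 (SE), adjusted p = 0.0233). Adgre1, which encodes F4/80, had 3.75, 4.47 and 2.51 TPM in A-C, against 1.3, 1.31 and 2.12 TPM in C, and C1qb, Ctss and Folr2 rose by 0.80, 0.57 and 0.55. Clec4f, a lectin of Kupffer cells, had 53.7, 64.2 and 41.2 TPM in A-C, against 41.2, 36.3 and 45.6 TPM in C, and did not pass (adjusted p = 0.191). The markers summed to 412, 524 and 386 TPM in A-C, against 254, 269.6 and 357 TPM in C, and without A-C replicate 9, C replicate 2 or C replicate 3 none passed. The calls named here were each lost on leaving out at least 1 of A-C replicates 6, 9 and 12, M replicates 26 and 27 and C replicates 2, 3 and 4.

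Stellate cell and matrix genes were mixed, with 5 of 23 higher and 2 lower. Timp3, a metalloproteinase inhibitor, had 4.81, 4.44 and 4.01 TPM in A-C, against 2.01, 1.17 and 1.46 TPM in C (log2 ratio 1.10 ± 0.14 (SE), adjusted p = 0.00375). Col4a1, of basement membrane, had 8.17, 10.2 and 18.3 TPM in A-C, against 4.23, 3.77 and 3.85 TPM in C, and Lrat, which stores retinol, rose by 0.91. Col3a1, a fibrillar collagen, had 3.6, 1.74 and 2.52 TPM in A-C, against 4.47, 7.21 and 5.5 TPM in C, and fell by 0.90, whereas Col1a1 (-0.34) and Acta2 (-0.82) did not pass. Antibody genes fell, with 3 of 9 tested B cell and MHC class II genes lower whichever A-C or C library was left out. Jchain, which joins IgA and IgM, had 0.475, 0.287 and 0.343 TPM in A-C, against 1.32, 1.38 and 1.31 TPM in C (log2 ratio -0.77 ± 0.12 (SE), adjusted p = 0.00632). Igkc had 5.29, 4.22 and 6.41 TPM in A-C, against 38.5, 36.3 and 25 TPM in C, and Ighm fell by 1.30. The MHC class II gene H2-Aa had a log2 fold change of -0.26 and did not pass. Of 3 tested T and NK cell markers 0 passed limma's adjusted test and 0 had an unadjusted p under 0.05, with 0 called by voom. Of 6 cholangiocyte markers 0 passed limma's adjusted test and 1 had an unadjusted p under 0.05, with 0 called by voom. Hba-a2, an alpha globin of red blood cells, had 12.7, 17.4 and 7.32 TPM in A-C, against 76.4, 53.8 and 38.8 TPM in C, and fell by 2.11, and the erythroid markers summed to 242, 332 and 152 TPM in A-C, against 759, 693 and 472 TPM in C. Timp3, Jchain, Igkc and Ighm passed with any 1 of the 9 libraries left out, and each other call named here ended without at least 1 of A-C replicates 9 and 12 and C replicates 2, 3 and 4. Whether these cell type markers took part in the other results was not tested.

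In the cell cycle list 1 of 17 tested genes rose and 3 fell (2 higher and 2 lower on the TPM as deposited). Of 18 p53 targets and growth arrest genes 1 rose and 2 fell (2 higher and 0 lower on the TPM as deposited). The shares were 5.88% higher and 17.65% lower for the cell cycle, and 5.56% and 11.1% for p53 targets. Over all genes they were 9.71% and 7.17%. Rrm2, a subunit of the reductase that makes deoxynucleotides, had 3.83, 2.5 and 1.15 TPM in A-C, against 15.7, 13.1 and 16 TPM in C (log2 ratio -2.26 ± 0.34 (SE), adjusted p = 0.00639). Cdkn1a, the cell cycle inhibitor p21, had 18.9, 46 and 94.8 TPM in A-C, against 19.7, 6.57 and 6.57 TPM in C and passed (adjusted p = 0.0347) with groups that overlap, since A-C replicate 6 lay below C replicate 2. Bax, a promoter of apoptosis, had 16.7, 18.1 and 20 TPM in A-C, against 32.3, 31.3 and 28.6 TPM in C, and it fell by 0.72. Of the calls named here, Rrm2 held in each fit without 1 library, whereas each of the rest was lost without at least 1 of A-C replicates 6, 9 and 12, M replicates 26 and 27 and C replicates 2, 3 and 4.

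Lysosome and autophagy genes rose in 7 of 32 cases. Ctsl, the cathepsin L gene, had 411, 406 and 680.5 TPM in A-C, against 125, 156 and 152 TPM in C (log2 ratio 1.75 ± 0.26 (SE), adjusted p = 0.00624). Sqstm1, the autophagy receptor p62, had 272, 364 and 307 TPM in A-C, against 130.5, 171 and 177 TPM in C. Hexa, a lysosomal hexosaminidase, had 80.7, 75.2 and 54 TPM in A-C, against 28.8, 39.7 and 34.5 TPM in C. Proteasome genes split by particle. Of 20 tested genes of the 19S regulator (Psmc and Psmd) 10 rose, with a median of 0.54, while of 17 genes of the 20S core (Psma and Psmb) 2 fell, with a median of -0.09. Psmd11 had 39, 43.2 and 36.9 TPM in A-C, against 16.4, 18.1 and 20.9 TPM in C (log2 ratio 1.07 ± 0.13 (SE), adjusted p = 0.00353). Psmd7 had 70.8, 75.5 and 72.7 TPM in A-C, against 28.3, 35.7 and 42.8 TPM in C. Psmd13 had 43.4, 46.1 and 47.4 TPM in A-C, against 12.5, 18.8 and 26.9 TPM in C. Psmb10, an immunoproteasome subunit, had 27.4, 31.7 and 19.9 TPM in A-C, against 42.6, 51.4 and 53.1 TPM in C, and fell by 0.89. On the TPM as deposited 18 of the 41 proteasome genes were higher and 1 lower; the difference between the particles itself was not tested. The calls of Ctsl, Psmd11 and Psmd7 held whichever library was left out, and the others named here each ended without at least 1 of A-C replicate 9 and C replicates 3 and 4.

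Respiratory chain genes were lower where they changed, apart from Sdha. Of 77 tested nuclear genes 21 fell and 1 rose, with a median of -0.37. Ndufb4, an accessory subunit of complex I, had 67, 52.3 and 46.9 TPM in A-C, against 103, 103 and 95.8 TPM in C (log2 ratio -0.86 ± 0.15 (SE), adjusted p = 0.0103). Ndufa5 had 167, 141 and 129 TPM in A-C, against 281, 263 and 239.9 TPM in C. Ndufa6 had 239, 191 and 133 TPM in A-C, against 332, 390.2 and 322 TPM in C. Each A-C value lay below each C value, and replicate 12 was lowest in the 3 genes. Cox7a1, a complex IV subunit, had 4.21, 3.6 and 0.968 TPM in A-C, against 9.84, 13 and 11 TPM in C, and fell by 1.75, and Atp5j, of ATP synthase, fell by 0.79. Sdha, the catalytic subunit of complex II, was the rise, by 0.75. On the TPM as deposited 6 fell and 5 rose, and without 1 A-C or C library 0 to 26 (fewest without C replicate 3) fell. Of 13 mitochondrially encoded mRNAs 3 fell, ND3 with 178, 146 and 122 TPM in A-C, against 279.9, 224 and 292 TPM in C and ND2 with 23665, 18606 and 16694 TPM in A-C, against 45408, 29744 and 31252 TPM in C. The 13 summed to 150150.0, 109744 and 123688 TPM in A-C, against 317835, 170473 and 168562 TPM in C, so C replicate 2 stood far above the other 8 libraries, at 27.6% of its TPM. On the TPM as deposited 1 of the 13 fell. Leaving out A-C replicate 12 or any 1 of C replicates 2, 3 and 4 also gave 1. Without A-C replicate 9 the count was 0, and without A-C replicate 6 it was 3. In the mitochondrial ribosome 15 of 76 fell and 7 rose (10 higher and 3 lower on the TPM as deposited), Mrps36 with 15.2, 13.6 and 12.3 TPM in A-C, against 25, 24 and 23.7 TPM in C and Mrps23 with 12.2, 13.9 and 17.4 TPM in A-C, against 5.92, 6.23 and 7.16 TPM in C. In the cytosolic ribosome 3 of 82 fell and 4 rose, with a median of 0.00; as deposited 16 rose and 1 fell. No single library, left out, ended the calls of Mrps36 and Mrps23, while each other named call was lost on leaving out at least 1 of A-C replicates 6, 9 and 12, M replicates 26 and 27 and C replicates 2, 3 and 4.

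The fold change varied with exon length. In the shortest of 5 bins of exon length (12 to 2145 bases) the median log2 fold change was -0.13, with 6.31% called higher and 11.7% lower. In the longest bin (7194 to 41619 bases) the median was 0.10, with 10.3% higher and 3.93% lower. The 21 respiratory chain genes that fell had a median exon length of 1291 bases, against 1756 for the 77 tested. The 15 mitochondrial ribosome genes that fell had a median of 2172 bases, against 2394 for the 76 tested. The 7 that rose had a shorter median, 1644 bases. The cytosolic ribosome, with a median of 1754.5 bases, had 4 genes higher and 3 lower. The shortest genes stood at -0.02, -0.06 and -0.10 in A-C against the mean of the 6 libraries (log2 medians), and at -0.03, 0.11 and 0.11 in C, so C replicate 2 sat with the A-C libraries. The 19S and 20S genes had median exon lengths of 2938.5 and 2370 bases. By call, the 10 proteasome genes that rose had a median of 4502.5 bases, the 3 that fell 2209 and the 41 tested 2820. Complement genes that rose had a median of 3984 bases and those that fell 1822.5. Endothelial and lysosome genes that rose had medians below those of all tested members, at 4203 bases against 5034 and 2744 against 4090.5. Whether exon length took part in these rises and falls was not tested.

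**Figure D5:**
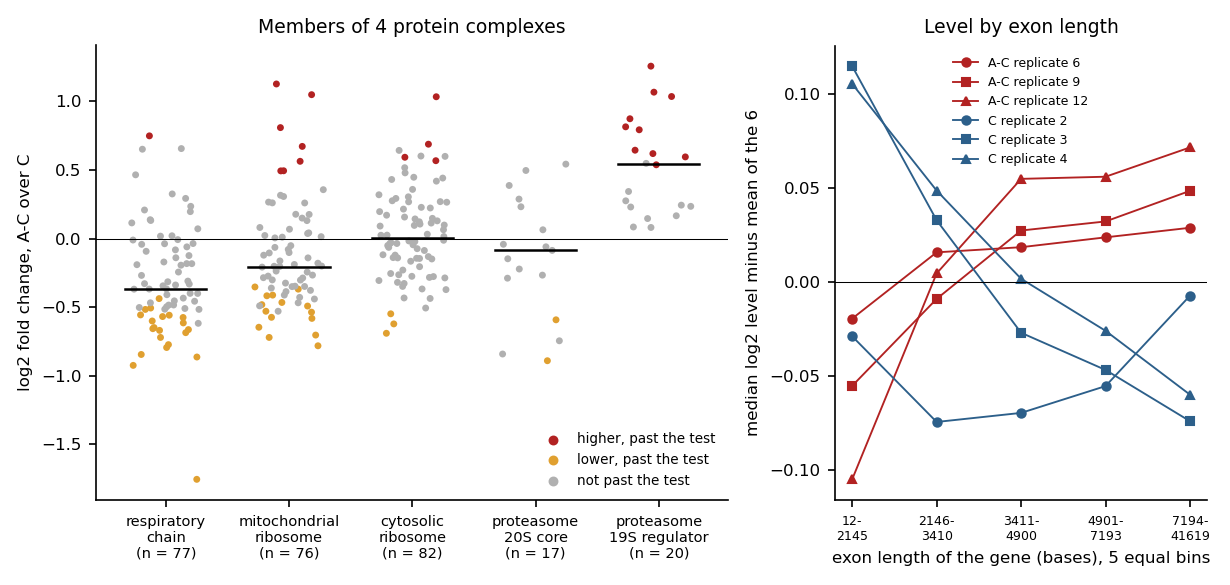
Left, log2 fold change of A-C over C (y axis) of each tested gene of the respiratory chain, the mitochondrial and cytosolic ribosome and both particles of the proteasome, coloured by test result, with black lines at the medians; the 19S median of 0.54 stands apart from the 20S median of -0.09. Right, for each library the median log2 level minus the mean of the 6 (y axis) in 5 bins of exon length (x axis, bases), where A-C (red) and C replicates 3 and 4 (blue) cross from the shortest bin to the longest.

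Group M gives the levels of the same genes in another set of livers. Between M and A-C 0.171% of tested genes passed, or 19. Gstm3 was among them, with 31.9, 15.6 and 28.7 TPM in M, against 400.0, 190.2 and 327 TPM in A-C (adjusted p = 0.00911), and so was Ugt1a5, with 4.23, 2.5 and 5.19 TPM in M, against 25.1, 22 and 19.1 TPM in A-C (adjusted p = 0.00912). The C libraries had 35.2, 45.3 and 36.6 TPM of Gstm3 and 6.49, 6.96 and 4.93 TPM of Ugt1a5, so M lay below C in Gstm3 and overlapped with it in Ugt1a5. For Tff3, in contrast, M had 4.38, 2.89 and 2.94 TPM, all 3 below the A-C libraries, and for Arntl 1.54, 2.73 and 2.28 TPM. The M and A-C comparisons share the A-C libraries, so their fold changes are not independent.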

How the data were processed

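RNA-seq was measured in 9 mouse liver libraries, 3 each of groups A-C, C and M as the labels name them. The authors deposited 1 table of TPM, which divide reads by exon length and fix each library's sum at 1000000. Per the submitters' processing notes the build is mm10. The sources used here name no aligner, counter or strand setting. The table holds 32248 lines; 168 gene IDs repeat with equal values, leaving 31964. TPM times exon length falls in whole steps, from which reads per library were recovered (99.96% to 100% of a library's values within 0.1 of a whole number). TPM were divided by a trimmed mean of ratios computed from those reads (TMM, trimming 30% of log ratios and 5% of levels), and printed TPM are these scaled values. Genes at 1 TPM or more in at least 3 of 9 libraries were tested on log2(scaled TPM + 1) with limma 3.58.1 in R 4.3.3 (trend and robust options, all 9 libraries in 1 fit), with Benjamini-Hochberg adjustment and a threshold of 0.05. Fold changes are on that scale, A-C minus C, and understate changes of low genes. A member that passes the TPM minimum through its high group alone had to differ, so counts over tested members describe them and do not test the list. Alternatives were TPM as deposited, median-of-ratios scaling, a pseudocount of 0.1, no filter, a 5 TPM minimum, A-C and C libraries alone, plain empirical Bayes, voom on recovered reads, and leaving out each library. The comparison and the gene lists were chosen with earlier results of these data known. Named genes are the 12 largest changes in each direction, up to 6 called members of each list, and all members of the clock, sterol synthesis, bile acid, glucose, growth hormone, nuclear receptor and marker lists, except genes that are not reported here. Added after their values were seen were Abcg8, Acot1, Acot3, Cidec, Cyp2a12, Cyp2b13, Cyp3a11, Fga, Gclc, Gclm, Gss, Gstp1, Hamp, Hspa5, Irf1, Mttp, Mup2, Mup22, Mup3, Nfe2l2, Orm2, Saa1, Scd1, Sdha, Serpina3n, Slc1a2 and Socs3. Promoter sequences are RefSeq's (GRCm38.p6). Figures were drawn with matplotlib 3.10.9.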

Additional observations from a re-analysis of the deposited data

How the results depend on the processing

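Against 1076 genes higher and 795 lower, the TPM as deposited gave 2385 and 404. Leaving out 1 library gave 205 to 1226 higher and 126 to 967 lower, with the fewest when C replicate 3 was left out. Median-of-ratios scaling gave 1031 and 824, a pseudocount of 0.1 1100 and 764, no filter 755 and 659, a minimum of 5 TPM 840 and 569, the A-C and C libraries alone 888 and 715, plain empirical Bayes 1076 and 809, and voom 1098 and 767. Of 262 called genes among the 449 chosen by the naming rule, 179 lost the call when C replicate 3 was left out and 158 when A-C replicate 9 was, 27 lost it on the TPM as deposited, and no called gene changed direction under any alternative run. No paired analysis was possible because the groups share no replicate number (6, 9 and 12 in A-C, 2, 3 and 4 in C). The number of libraries, 3 a group, and the spread within A-C limit what can be called, and a gene near 1 TPM has its fold change compressed by the added 1.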

Other observations

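Some of the larger changes fell outside the gene lists; the genes given here were chosen after their values were seen. Mat2a, the methionine adenosyltransferase of non-hepatocyte and growing cells, had 12.2, 17 and 13.4 TPM in A-C, against 3.66, 3.82 and 3.51 TPM in C (log2 ratio 1.69 ± 0.15 (SE), adjusted p = 0.00172), so it rose beside Mat1a. Odc1, the first enzyme of polyamine synthesis, had 78.1, 66 and 52.5 TPM in A-C, against 15.5, 18.4 and 24.2 TPM in C (log2 fold change 1.71 ± 0.20, SE). Gpat3, an acyltransferase of triglyceride synthesis, had 8.09, 10.3 and 10.5 TPM in A-C, against 2.18, 0.85 and 0.644 TPM in C (log2 fold change 2.31 ± 0.24, SE). A-C lay above C in each of the 3 genes. Cyp26b1, which clears retinoic acid, had 28.3, 29.2 and 20.2 TPM in A-C, against 5.17, 2.52 and 3.82 TPM in C. Aqp1, a water channel of endothelium and bile ducts, had 82.2, 85.9 and 82.8 TPM in A-C, against 28.4, 19.1 and 26.7 TPM in C. Cldn2, a tight junction protein, had 33.2, 67.8 and 72.2 TPM in A-C, against 7, 12.9 and 18.8 TPM in C. These 3 genes rose too, by 2.50, 1.74 and 2.10.

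In the opposite direction Rgs16, a regulator of G protein signalling, had 85.4, 57.1 and 6.52 TPM in A-C, against 279, 248 and 291 TPM in C (log2 ratio -3.03 ± 0.85 (SE), adjusted p = 0.0409). Col27a1, a fibrillar collagen gene, had 7.01, 2.79 and 1.39 TPM in A-C, against 34.7, 27.9 and 22.1 TPM in C (log2 fold change -2.79 ± 0.48, SE). Each A-C library lay below each C library in both genes. In fits without any 1 library Col27a1 still passed. The call of Rgs16 was lost without at least 1 of A-C replicates 9 and 12, M replicates 26 and 27 and C replicates 2, 3 and 4. For the genes of the paragraph above, the fits without 1 library are not given here.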
